A study of Saccharomyces cerevisiae with 10 samples.

Results

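The genes described here encode the yeast enzymes that phosphorylate hexoses and carry glucose phosphate on to UDP-glucose. They are the hexokinases HXK1 (YFR053C) and HXK2 (YGL253W), the glucokinase GLK1 (YCL040W) with its paralog EMI2 (YDR516C), the phosphoglucomutases PGM1 (YKL127W) and PGM2 (YMR105C), and UGP1 (YKL035W). They were chosen by gene symbol and not by a cut on their values, though with earlier results of these data known. All 7 were found in the annotation of the array, each on 1 row, among the 6259 genes and unnamed rows of the table. Expression in 2 strains of Saccharomyces cerevisiae, DJ28 and FY23, had been compared directly on 10 spotted arrays. DJ28 carried Cy3 and FY23 carried Cy5 on arrays 1 to 5, while arrays 6 to 10 had the dyes the other way round. The series title speaks of a mutant whose Ras/cAMP pathway is constitutively active, and PDE2, the gene of the high-affinity cyclic AMP phosphodiesterase, is a keyword of every array. The labels state neither the full genotypes nor the medium, the growth phase and the number of cultures or clones behind the RNA. P-values therefore measure only how far the arrays spread, and that spread may be technical.

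Glucose that enters a yeast cell is first phosphorylated to glucose 6-phosphate, by Hxk1 or Hxk2, which also act on fructose, or by glucokinase, which does not. Hxk2 is the main hexose kinase during growth on glucose and also takes part in glucose repression in the nucleus, while HXK1 and GLK1 are known to be more active on other carbon sources. Phosphoglucomutase converts glucose 6-phosphate to glucose 1-phosphate and back, with Pgm2 as the major isozyme, and Ugp1 turns glucose 1-phosphate into UDP-glucose, from which trehalose, glycogen and cell wall glucan are built. Protein kinase A, which cyclic AMP activates, is known to hold back the stress factors Msn2 and Msn4 and with them many genes of storage carbohydrate metabolism, PGM2 among them.

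The deposited values were taken as log2 ratios of the 2 dyes, with 2230 values on array 1, 4342 on array 2 and 5755 to 6048 on the others. Each was centred on the median of its array and is given as the log2 ratio of DJ28 over FY23. No source used here gives the numerator of the deposited ratio, and Cy5 was taken for it, so that PDE2 is lower in DJ28 (log2 difference -1.96, standard error 0.168, 8 of 8 replicates). With the opposite reading every higher and lower here would turn together, and no size would change. Arrays 6 and 7 correlated at r = 0.988 (other pairs reached 0.694) and were counted as 1 replicate, leaving 9. The arrays give ratios and no levels, so how abundant one isozyme is beside another was not measured.

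PGM2 fell in DJ28 and was the lowest of the 7 genes on each of the 8 replicates on which it had a value. It was the only 1 of the 7 past limma's moderated test, in a table in which 0.549% of the 5642 genes tested passed, 0.461% lower and 0.0886% higher in DJ28. Without adjustment 4 of the 7 (PGM2, UGP1, GLK1 and PGM1) had a p under 0.05, as had 13.3% of all genes tested. All 4 were lower in DJ28, a direction in which 7.39% of all genes had such a p. UGP1 was also below 0 on every replicate that had a value, without passing. GLK1, PGM1 and EMI2 had smaller negative differences and the hexokinases small positive ones, none past the test. HXK2 was the highest of the 7 genes on 7 of its 8 replicates. Within arrays, PGM2 was lower relative to PGM1, and HXK2 higher relative to GLK1 and EMI2, on all replicates with a value for both genes.

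**Figure D1:**
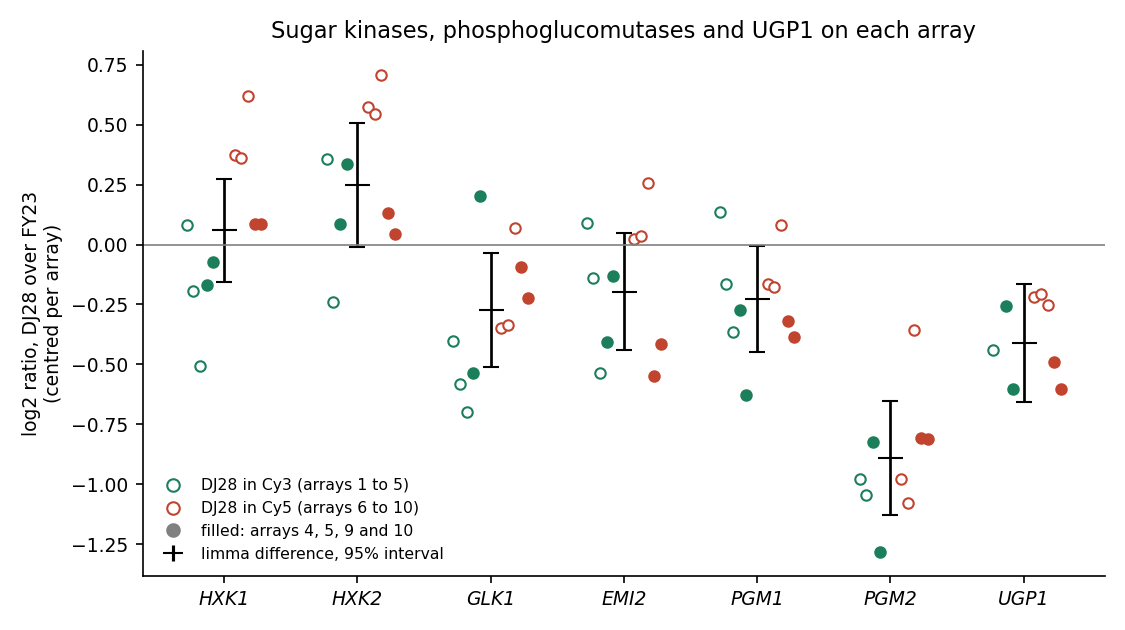
Log2 ratio of DJ28 over FY23 (vertical axis, centred on each array's median) for the 7 genes on each array, with arrays 1 to 5 to the left and arrays 6 to 10 to the right of each gene's mean; filled points are arrays 4, 5, 9 and 10, and black bars are limma's difference with its 95% interval. All points of PGM2 and UGP1 lie below 0, while the points of the other 5 genes lie on both sides of it.

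PGM2 encodes the major phosphoglucomutase. With DJ28 in Cy3 its log2 ratios were -0.98, -1.04, -0.82 and -1.28 on arrays 2 to 5, and array 1 had no value. With DJ28 in Cy5 they were -0.98, -1.08, -0.36, -0.81 and -0.81 on arrays 6 to 10. All 9 arrays with a value were therefore on the side of lower expression in DJ28, array 8 least so. On 8 of these arrays between 0.748% and 8.87% of the genes with a value lay lower than PGM2, and on array 8 it was 22.4%. The fitted difference was -0.89 with a standard error of 0.107, which is 1.85-fold lower in DJ28 with a 95% interval from 1.57-fold to 2.19-fold (limma, adjusted p = 0.00534). It ranked 11 among the 5642 genes by the most negative difference and 6 by p. The first orientation had a mean of -1.03 ± 0.191 and the second one of -0.75 ± 0.283 (SD, n = 4 each), and the dye effect of 0.14 did not pass its own test. Within arrays 4, 5, 9 and 10, the only ones with cells at the scale maximum, the difference was -0.93 (limma, adjusted p = 0.0493). Within the remaining arrays it was nearly as large, at -0.85, and did not pass (adjusted p = 0.413). As RNA of many cells was measured together, less transcript in each cell and fewer cells with the transcript cannot be told apart.

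PGM1 encodes the minor phosphoglucomutase. Its log2 ratios were 0.14, -0.16, -0.36, -0.27 and -0.63 on arrays 1 to 5. On arrays 6 to 10 they were -0.17, -0.18, 0.08, -0.32 and -0.39. Arrays 1 and 8 were above 0 and the others below it. The difference was -0.23 with a standard error of 0.101 and a 95% interval from -0.45 to -0.01 (limma, adjusted p = 0.369, lower on 7 of 9 replicates). It was -0.40 within arrays 4, 5, 9 and 10 and -0.09 within the remaining arrays.

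UGP1 encodes UDP-glucose pyrophosphorylase, the enzyme that makes UDP-glucose. Its log2 ratios were -0.44, -0.26 and -0.60 on arrays 2, 4 and 5. With DJ28 in Cy5 they were -0.22, -0.21, -0.25, -0.49 and -0.60 on arrays 6 to 10. Arrays 1 and 3 had no value, and no value of UGP1 reached 0. The difference of -0.41, with a standard error of 0.109, was 1.33-fold lower in DJ28, with a 95% interval from 1.12-fold to 1.57-fold. It did not pass (limma, adjusted p = 0.186, lower on 7 of 7 replicates). Among 19 alternatives it passed in 1, with array weights that limma estimated from these same ratios (-0.46, adjusted p = 0.0455). In that setting 113 genes passed, against 31 in the main fit. UGP1 and PGM2 were the members lower on every replicate with a value, as were 1.33% of all genes tested. The orientation means of UGP1 were close, at -0.43 ± 0.174 with DJ28 in Cy3 (SD, n = 3) and -0.39 ± 0.187 with DJ28 in Cy5 (SD, n = 4). It had too few values for a fit within the remaining arrays, and was at -0.49 within arrays 4, 5, 9 and 10.

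HXK2 encodes hexokinase isozyme 2. Its log2 ratios were 0.36, -0.24, 0.08 and 0.34 on arrays 2 to 5, and array 1 had no value. On arrays 6 to 10 they were 0.57, 0.54, 0.71, 0.13 and 0.05. Array 3 alone was below 0. The difference was 0.25 with a standard error of 0.117 and a 95% interval from -0.01 to 0.51 (limma, adjusted p = 0.387, higher on 7 of 8 replicates). The interval reaches a level 1.42-fold higher in DJ28 and includes no difference.

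HXK1, which encodes hexokinase isozyme 1, had log2 ratios of 0.08, -0.19, -0.51, -0.17 and -0.07 on arrays 1 to 5. On arrays 6 to 10 they were 0.38, 0.36, 0.62, 0.09 and 0.09. The sign followed the dye on all arrays but array 1: the mean was -0.17 ± 0.216 with DJ28 in Cy3 (SD, n = 5) and 0.29 ± 0.257 with DJ28 in Cy5 (SD, n = 4). The dye effect, 0.23, was the largest of the 7 genes and did not pass (limma, adjusted p = 0.187). The strain difference was 0.06 with a standard error of 0.0985 and a 95% interval from -0.16 to 0.28 (adjusted p = 0.81). It was -0.02 within arrays 4, 5, 9 and 10 and 0.14 within the remaining arrays, so it had no settled sign.

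GLK1 encodes glucokinase. Its log2 ratios were -0.40, -0.58, -0.70, -0.54 and 0.20 on arrays 1 to 5. On arrays 6 to 10 they were -0.35, -0.34, 0.07, -0.09 and -0.23. Arrays 5 and 8 were above 0, and arrays 2, 3 and 4 were the lowest. The difference was -0.28 with a standard error of 0.109 and a 95% interval from -0.51 to -0.04 (limma, adjusted p = 0.333, lower on 7 of 9 replicates).

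EMI2, the paralog of GLK1, is named for a role in early meiotic induction. Its log2 ratios were 0.09, -0.14, -0.54, -0.41 and -0.13 on arrays 1 to 5. On arrays 6 to 10 they were 0.02, 0.04, 0.26, -0.55 and -0.41. The difference was -0.20 with a standard error of 0.112 and a 95% interval from -0.44 to 0.05 (limma, adjusted p = 0.455, lower on 6 of 9 replicates). All 4 of arrays 4, 5, 9 and 10 were below 0, with a difference of -0.38 (adjusted p = 0.162). Within the remaining arrays it was -0.03 (adjusted p = 0.946).

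**Figure D2:**
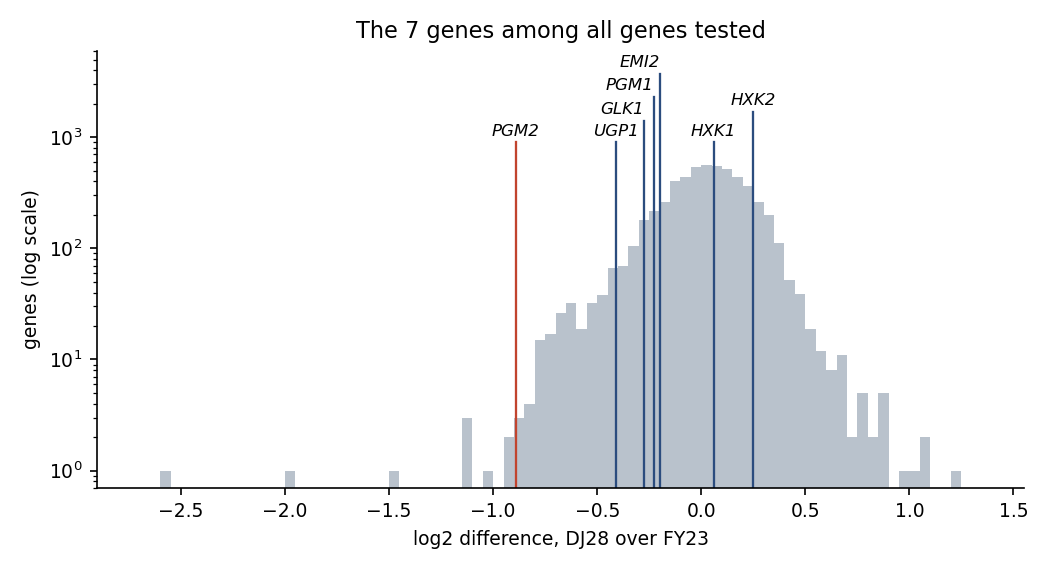
Histogram of the log2 difference, DJ28 over FY23, of the 5642 genes tested (horizontal axis) against the number of genes on a log scale, with a line at each of the 7 genes. PGM2, at -0.89, lies in the lower tail, where 0.177% of the genes had a more negative difference, and the other 6 genes lie between -0.41 and 0.25.

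Whether isozymes differed from each other was tested within arrays, as the strain difference of one gene minus that of the other, over 7 pairs. The test was an exact two-sided permutation of the dye orientation over the replicates, which can reach 0.0286 at the lowest with 8 replicates and 0.00794 with 9. P-values were adjusted over the 7 pairs, which share genes. How often other pairs of genes pass this test was not computed, so the count of passing pairs has no background share. A pair difference compares changes and not levels. Of the 7 pairs 6 passed, each with adjusted p = 0.0333, and these calls sit close to the threshold: with medians in place of means none of the 6 passed (adjusted p = 0.0667 each), and without arrays 6 and 7 none did (adjusted p from 0.05 to 0.0667). Within a single array set no pair passed and the test could not reach the threshold. How far the spots of paralogs tell them apart was not tested.

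PGM2 was lower relative to PGM1 on 8 of 8 replicates. The pair difference was -0.81, -0.68, -0.55 and -0.66 on arrays 2 to 5 and -0.81, -0.90, -0.44, -0.49 and -0.42 on arrays 6 to 10. Its mean of -0.61 means that the PGM2 ratio was 1.53-fold lower than the PGM1 ratio (exact permutation p = 0.0286, adjusted p = 0.0333). It was -0.53 within arrays 4, 5, 9 and 10 and -0.70 within the remaining arrays.

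HXK2 stood above both glucokinase genes on 8 of 8 replicates. Against EMI2 the pair difference lay between 0.30 and 0.68, with a mean of 0.48 (exact permutation p = 0.0286, adjusted p = 0.0333), and was 0.52 within arrays 4, 5, 9 and 10 and 0.44 within the remaining arrays. Against GLK1 it ranged more widely, between 0.14 and 0.94, with a mean of 0.52 (exact permutation p = 0.0286, adjusted p = 0.0333), and the same sets of arrays gave 0.31 and 0.73. HXK1 also stood above EMI2, by 0.26 on 7 of 9 replicates (exact permutation p = 0.00794, adjusted p = 0.0333). That pair differed by between -0.05 and 0.24 on arrays 1 to 5 and by between 0.32 and 0.64 on arrays 6 to 10. HXK1 was above GLK1 by 0.33 on 8 of 9 replicates (exact permutation p = 0.0238, adjusted p = 0.0333), a call lost without array 1, 2, 3, 4, 8 or 10, with adjusted p up to 0.0667. Array 5 was its exception, at -0.28, the array on which GLK1 itself stood highest.

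Between paralogs, HXK1 was below HXK2 by 0.22 on 7 of 8 replicates (exact permutation p = 0.0286, adjusted p = 0.0333). That pair differed by between -0.55 and -0.25 on arrays 2 to 5. On arrays 6 to 10 it lay closer to 0, between -0.20 and 0.04. GLK1 and EMI2 did not differ past the test, at -0.08 (exact permutation p = 0.5, adjusted p = 0.5, lower on 6 of 9 replicates). The 95% interval of that difference in limma ran from -0.34 to 0.18. The pair difference of GLK1 over EMI2 was below 0 on arrays 1, 2, 3, 4, 6, 7 and 8 and above 0 on arrays 5, 9 and 10. It was 0.21 within arrays 4, 5, 9 and 10 and -0.32 within the remaining arrays.

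**Figure D3:**
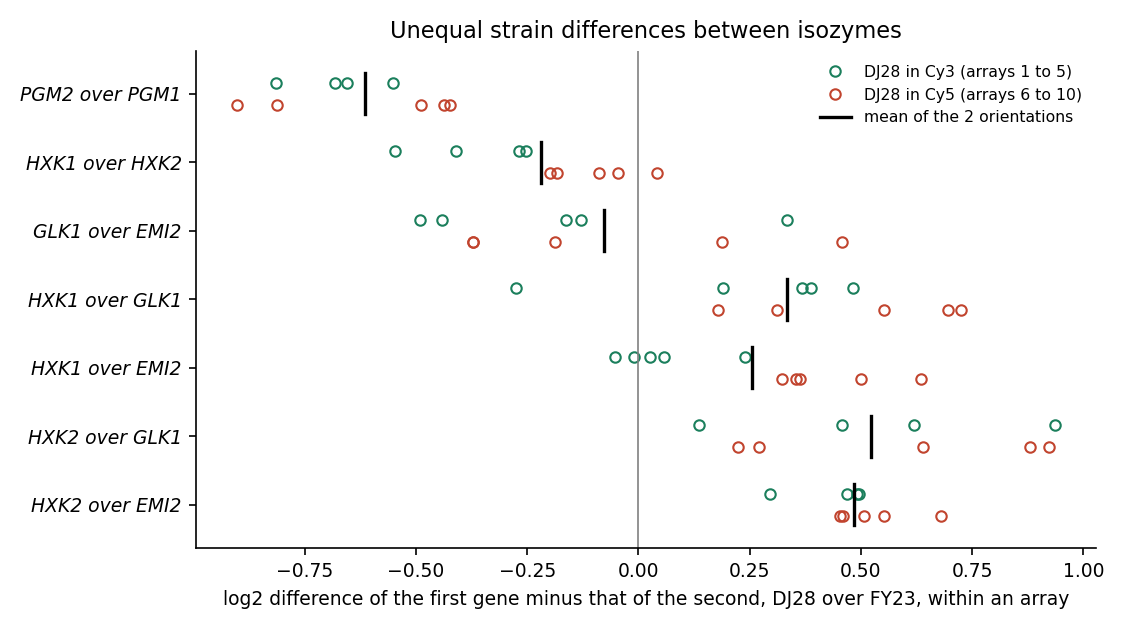
Within-array difference between the log2 ratios (DJ28 over FY23) of 2 genes, first minus second, for the 7 pairs; each point is an array, coloured by dye orientation, and the black bar is the mean of the orientations with arrays 6 and 7 as 1 replicate. All points of PGM2 over PGM1 lie below 0 and all points of HXK2 over GLK1 and HXK2 over EMI2 lie above it.

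Of a list of 27 enzymes that make or use glucose phosphates or UDP-glucose, 26 were tested, and 2 fell and 0 rose (limma), where 0.461% of all genes tested fell and 0.0886% rose. Both act in trehalose synthesis: TSL1, a large subunit of the trehalose synthase complex, at -0.75 ± 0.0955 (standard error), and TPS2, the trehalose phosphate phosphatase, at -0.61 ± 0.091. Each was lower on 9 of 9 replicates, with adjusted p = 0.00534 for TSL1 and 0.0116 for TPS2. The 6 trehalose enzymes tested ran from -0.75 to -0.06, with 4 lower at an unadjusted p under 0.05 (7.39% of all genes tested). TPS1, in that group, was at -0.24 and did not pass (limma, adjusted p = 0.333). The 3 enzymes of cell wall glucan and glycosylation ran from -0.67 to 0.19, with 0 past the test and 2 lower at such a p. Of these 3, GSC2 came closest, at -0.67 and lower on 9 of 9 replicates (limma, adjusted p = 0.0674). Negative differences made up 22 of the 26 and the median was -0.25, while over all genes tested 43.9% were negative and the median was 0.03. This list and the list of regulators were chosen with earlier results of these data known. The shares describe the list and test nothing. Of the 7 enzymes of glycogen synthesis and breakdown 0 passed, with 4 lower at an unadjusted p under 0.05 (7.39% of all genes tested). Their differences ran from -0.72 to -0.05. GSY2, GLC3 and GDB1 came close to the threshold (limma, adjusted p = 0.0572, 0.0587 and 0.0783), and the rest did not (0.303 to 0.8615). In ordinary least squares 0 of these 7 passed, against 2 of the trehalose enzymes and 12 of all 5642 genes tested. The 4 enzymes at the entry to glycolysis and the pentose phosphate route ran from -0.40 to -0.19, with 0 past the test, 3 lower at an unadjusted p under 0.05 and 0 passing in ordinary least squares. The phosphomannose enzymes, which lead to mannose for glycoproteins, were both positive and not past the test, at 0.14 for PMI40 and 0.24 for SEC53, and the mutase relative PGM3 was at 0.04. TPS3, a further subunit of the trehalose complex, had too few values.

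**Figure D4:**
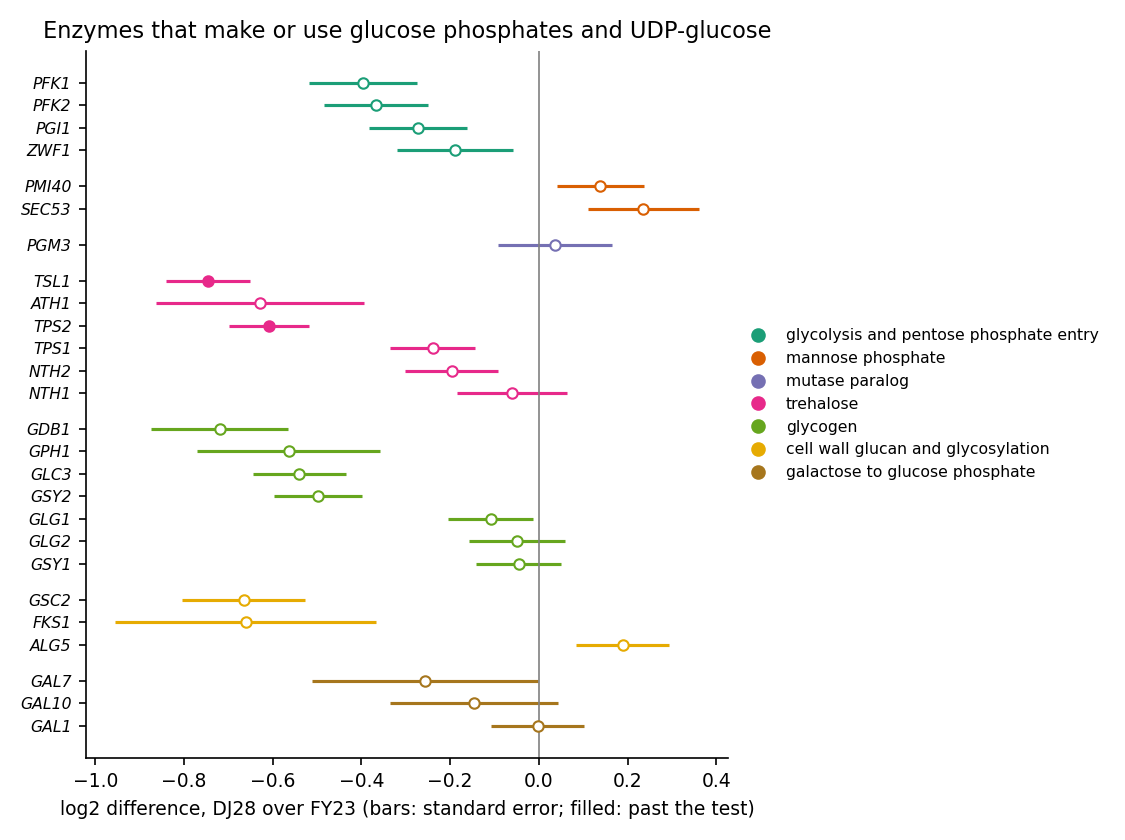
Log2 difference, DJ28 over FY23 (horizontal axis, bars are standard errors), of the 26 tested enzymes that make or use glucose phosphates or UDP-glucose, grouped by pathway; filled points passed the test. TSL1 and TPS2 are the filled points, and 22 of the 26 lie below 0.

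Of 17 regulators of these enzymes 0 passed limma's test. They came from glucose repression, stress transcription, the PAS kinases that phosphorylate Ugp1 and the galactose switch. The median of the 17 was -0.13. In ordinary least squares 0 of them passed, where 12 of all 5642 genes tested did. At an unadjusted limma p under 0.05, 2 of the 17 were lower, where 7.39% of all genes were. Both of these 2 belonged to glucose repression, and 0 of the 4 stress transcription genes had such a p. The largest differences were -0.58 ± 0.266 (standard error) for MSN2, which encodes a stress transcription factor, and -0.49 ± 0.157 for MIG2, which encodes a glucose repressor. Next came -0.34 ± 0.146 for RGT1, which encodes a repressor of hexose transporter genes, and -0.23 ± 0.117 for PSK1, which encodes a PAS kinase. They were lower on 5 of 7, 6 of 7, 5 of 6 and 6 of 8 replicates in the same order.

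The genes whose dye ratios followed those of PGM2 most closely over its 8 replicates, among 3652 named genes with a value on all of them, were TSL1 (r = 0.99), ACO1 (r = 0.983), JEN1 (r = 0.979), GSY2 (r = 0.974) and ACH1 (r = 0.974). ACO1 encodes aconitase, JEN1 a carrier of lactate and pyruvate, GSY2 the main glycogen synthase and ACH1 a mitochondrial enzyme of acetyl-CoA metabolism. These r values describe the same 8 replicates, in which the strain difference itself and shared array effects both enter. The differences of these genes were -0.75, -0.64, -0.87, -0.50 and -0.62 in the same order, and GSY2 did not pass (limma, adjusted p = 0.0572).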

How the data were processed

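The table deposited by the authors holds log2 ratios of 2 dyes for 6277 rows and 10 two-colour arrays. The scale was read from its values, which stop at an upper limit of 16.61. No source used here states the normalization, background correction or spot filter. In the platform annotation 5663 rows carry a gene symbol and 614 are unnamed here. Names were updated through gene identifiers of assembly R64, which matched 5659 rows.

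The 13 cells at the limit were removed, arrays were centred on their medians, and rows of a gene averaged. Genes with values on at least 3 replicates of each orientation were fitted in limma 3.58.1 (R 4.3.3) with strain and dye terms, and p-values of the two-sided moderated test were adjusted by Benjamini-Hochberg over all 5642, with a threshold of 0.05. The median standard error was 0.131, and the number of arrays limits the precision. The lowest correlation of any pair of arrays within an orientation was r = -0.00807, so not all arrays counted as replicates resembled each other. Steps were tested on simulated data.

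The members and lists were chosen with earlier results of these data known. Named were all members, PDE2, list genes past the test (or the 4 with the largest differences, where none passed), and the 5 genes most like a member past the test. PMI40, SEC53, PGM3, TPS1, TPS3, GLC3, GDB1 and GSC2 were named after their values were seen. Alternatives changed the arrays used, the centring, weights, the treatment of empty and limiting cells, and the variance model.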

Additional observations from a re-analysis of the deposited data

Results flagged for a closer look

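Among 27 sets of 4 or 5 replicates (each gene or pair in each dye orientation), 2 held a replicate far from the others, where chance gives about 1 in 20. With DJ28 in Cy5, PGM2 over PGM1 was -0.86 in the averaged arrays 6 and 7, against -0.49 on the nearest and -0.42 on the farthest replicate. With DJ28 in Cy3, HXK2 over EMI2 was 0.30 on array 3, against 0.47 on the nearest and 0.50 on the farthest. Both replicates kept the direction of their pair.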

How the results depend on the processing

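The count of 31 genes past the test became 79 with all 10 arrays counted apart, 113 with array weights, 12 with ordinary least squares, 17 without arrays 6 and 7, 6 without arrays 1 and 2, 2 with DJ28 in Cy5 only, and 0 with DJ28 in Cy3 only or within the remaining arrays. With no centring it was 4, with 0 higher and 4 lower against 5 and 26. It ran from 10 (without array 10) to 79 (without array 8) with single arrays left out, and was 19 without array 2 and 12 without array 9. PGM2 passed with any single array left out, at -0.96 to -0.85 and adjusted p up to 0.0328, and in 10 of the other 14 alternatives in which it was tested. It was at -0.87 with no centring (adjusted p = 0.984), -0.85 within the remaining arrays, -1.03 with DJ28 in Cy3 only (adjusted p = 0.128) and -0.75 with DJ28 in Cy5 only (adjusted p = 0.146), so that 0 members passed in these 4 settings, as also on genes with values on all 10 arrays, where it was not tested. With array weights 2 members passed, PGM2 and UGP1 (-0.46). HXK1 turned to -0.017 within arrays 4, 5, 9 and 10 and to -0.17 with DJ28 in Cy3 only. HXK2, GLK1, EMI2 and PGM1 kept their sign and did not pass in any alternative run.

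Within an array set the permutation test of a pair cannot pass the threshold with so few arrays. Within arrays 4, 5, 9 and 10 the pair differences were -0.53 (PGM2 over PGM1), -0.17 (HXK1 over HXK2), 0.15 (HXK1 over GLK1), 0.36 (HXK1 over EMI2), 0.31 (HXK2 over GLK1) and 0.52 (HXK2 over EMI2). In the remaining arrays they were -0.70, -0.27, 0.49, 0.17, 0.73 and 0.44 in the same order. With medians in place of means these were -0.57, -0.20, 0.40, 0.23, 0.50 and 0.49, each with an adjusted p of 0.0667. Without arrays 6 and 7 no pair passed: the values in that order were -0.56, -0.20, 0.29, 0.28, 0.46 and 0.48, with an adjusted p of 0.0667 for the pairs with GLK1 and of 0.05, at the threshold and not under it, for the other 4. Without arrays 1 and 2 the call of HXK1 over GLK1 was lost (0.27). With single arrays left out HXK1 over GLK1 ran from 0.30 to 0.40. GLK1 over EMI2 turned to 0.21 within arrays 4, 5, 9 and 10 and to 0.018 without arrays 1 and 2. A limma fit of the pairs, added after the data were seen, passed the same 6 pairs. The causes were not tested.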
